A study of Mus musculus with 2 samples.

Results

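TGF-β signalling was described in the immune cells of the dorsal root ganglion (DRG), the cluster of sensory neuron cell bodies outside the spinal cord, through 8 genes: the ligand Tgfb1, its receptors Tgfbr1 and Tgfbr2, the receptor-regulated signal carriers Smad2 and Smad3, the feedback inhibitor Smad7, the transcriptional co-repressor Ski, and Nrros, which holds latent TGF-β1 at the surface of myeloid cells. The genes were chosen by name, and all 8 were among the 16819 symbols of the deposited matrix. The cells came from naive wild-type BALB/cAnNRj mice and had been sorted as CD45+ (a surface protein of leukocytes) and DAPI- (alive), and no group was treated. They were pooled in a single lane of the 10x 3′ v3 assay, which counts each captured transcript once as a unique molecular identifier (UMI). The 3 male mice gave 481, 772 and 1415 cells, and 1484 of these were macrophages, set as cells in which C1qa, C1qb and C1qc gave at least 0.5% of UMIs, and a further 610 macrophages came from 3 female mice in the same lane. Each hashtag antibody was taken as 1 mouse, and the mouse was the replicate throughout. Among macrophage markers that the C1q limit did not use, mean levels in macrophages and in the next type were 1336 and 145 CPM for Mrc1, 1203 and 238 CPM for Csf1r and 362 and 56.2 CPM for Adgre1.

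TGF-β1 is secreted in a latent form that must be released before it can bind. Active ligand joins TGFBR2 to TGFBR1, which phosphorylates SMAD2 and SMAD3, and these enter the nucleus with SMAD4. SMAD7 blocks the receptor, and SKI represses SMAD target genes. In the brain, NRROS and TGF-β signalling are needed for the mature state of microglia.

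The sequences before the starts of Tgfbr1, Tgfbr2 and Nrros on GRCm38 (chr4:47353222-47414931, chr9:116084293-116175360 and chr16:32142785-32165594) are shown as those of the receptors and of the member with the largest log2 fold change between macrophages and another cell type. Ski was also higher in macrophages than in every other cell type compared and is not shown. Each line gives 250 bases upstream of the start, 5′ to 3′ on the gene's strand, from RefSeq on GRCm38.p6. Capitals mark CAGAC (the SMAD box) and GAGGAAG (a core of PU.1 sites), searched on both strands. CAGAC was present in 42.2% and GAGGAAG in 10.6% of 32851 RefSeq windows of this length.
Tgfbr1, chr4:47352972-47353221, plus strand: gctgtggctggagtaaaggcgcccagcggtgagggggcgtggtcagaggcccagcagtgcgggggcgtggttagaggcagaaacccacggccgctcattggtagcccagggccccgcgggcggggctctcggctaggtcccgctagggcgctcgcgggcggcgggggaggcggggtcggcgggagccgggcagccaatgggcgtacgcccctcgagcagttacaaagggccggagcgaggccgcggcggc
Tgfbr1, second start, chr4:47385966-47386215, plus strand: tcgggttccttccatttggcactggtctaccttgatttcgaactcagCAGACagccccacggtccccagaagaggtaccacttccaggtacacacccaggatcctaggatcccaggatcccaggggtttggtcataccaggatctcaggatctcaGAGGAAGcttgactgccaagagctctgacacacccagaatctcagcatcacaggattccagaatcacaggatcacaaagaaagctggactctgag
Tgfbr2, chr9:116175364-116175613, minus strand: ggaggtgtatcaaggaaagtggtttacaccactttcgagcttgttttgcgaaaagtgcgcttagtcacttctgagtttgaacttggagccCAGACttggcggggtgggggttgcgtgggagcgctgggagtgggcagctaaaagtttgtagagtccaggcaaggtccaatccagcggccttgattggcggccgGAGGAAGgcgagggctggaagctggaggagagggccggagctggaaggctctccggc
Nrros, chr16:32165595-32165844, minus strand: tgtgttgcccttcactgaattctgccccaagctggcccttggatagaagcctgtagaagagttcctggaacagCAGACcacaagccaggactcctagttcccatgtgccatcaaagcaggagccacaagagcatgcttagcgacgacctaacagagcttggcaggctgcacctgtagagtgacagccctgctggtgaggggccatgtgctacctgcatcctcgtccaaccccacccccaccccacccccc
The first Tgfbr1 window, which ends at the annotated start of the gene, held neither motif and had 29 CG dinucleotides, against 12 in Tgfbr2 and 3 each in Nrros and the second Tgfbr1 window. That second window, inside the gene, held 1 match to each motif. Tgfbr2 held 1 match to each motif, and Nrros held 1 match to CAGAC. The longer palindrome GTCTAGAC, present in 0.167% of windows, was in none of the 4. The windows of Tgfb1, Ski and Smad3 held no match to these motifs.

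Macrophages were set apart from the other immune cells of the DRG by both TGF-β receptors. Tgfbr1, the kinase that carries the signal, was at 79.0, 93.7 and 84.6 CPM (counted UMIs scaled to a common library total with TMM factors) in the macrophages of male mice 1, 2 and 3. The next cell type by mean, B cells, gave 17.8, 52.9 and 8.10 CPM, from only 13 UMIs. Macrophages thus lay above every other cell type in each mouse, with no overlap, whereas neighbours among the other 5 types overlapped throughout. The log2 fold change of macrophages was 2.58 (SE 0.34, adjusted p = 3.8e-07) against monocytes, 1.81 (SE 0.29, adjusted p = 8.27e-06) against dendritic cells (DCs), 2.20 (SE 0.25, adjusted p = 1.02e-08) against neutrophils, 1.89 (SE 0.38, adjusted p = 0.000142) against B cells and 2.52 (SE 0.38, adjusted p = 2.94e-06) against T and NK cells, by edgeR (quasi-likelihood F test, p-values adjusted by Benjamini and Hochberg over 6035 genes).

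Tgfbr2, the receptor that binds ligand first, followed the same order at its top. Its macrophage level was 113, 139.5 and 122 CPM in the 3 mice, and B cells came next at 53.3, 39.6 and 64.8 CPM. The groups did not overlap, and the lowest mean was that of monocytes, at 22.5 ± 7.06 CPM (SD, n = 3). Macrophages were higher by 2.39 (SE 0.31, adjusted p = 3.7e-07) against monocytes, 2.14 (SE 0.29, adjusted p = 7.41e-07) against DCs, 2.16 (SE 0.25, adjusted p = 1.05e-08) against neutrophils, 1.2 (SE 0.32, adjusted p = 0.00241) against B cells and 1.52 (SE 0.31, adjusted p = 0.00015) against T and NK cells on the log2 scale by edgeR. With total UMIs in place of TMM factors the difference from B cells was 0.66 and was not called (adjusted p = 0.1 by edgeR).

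Nrros was higher in macrophages, monocytes and DCs than in the other types by mean. It was at 299.6, 343 and 284 CPM in macrophages, 329, 234 and 159 CPM in monocytes and 194, 187 and 196 CPM in DCs. Monocytes overlapped both neighbours, and the macrophage difference from them was 0.40 (SE 0.17, adjusted p = 0.0659) by edgeR, which is not a call. Without mouse 1, whose monocytes had the highest value, that difference was 0.74 (adjusted p = 0.00549 by edgeR), and with cells thinned to 2000 UMIs it was 0.84 (adjusted p = 0.0168 by edgeR). Macrophages were higher than DCs by 0.68 (SE 0.17, adjusted p = 0.00219), a call lost without mouse 2 (adjusted p = 0.0743 by edgeR). That DC value joins clusters with unlike Nrros, also given below. Neutrophils had 37.2 ± 2.26 CPM, B cells 66.5 ± 6.17 CPM and T and NK cells 25.9 ± 7.62 CPM (SD, n = 3). Against these 3 types macrophages were higher by 3.04 (SE 0.20, adjusted p = 7.84e-14), 2.20 (SE 0.24, adjusted p = 1.42e-08) and 3.51 (SE 0.27, adjusted p = 1.15e-11) on the log2 scale by edgeR.

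The ligand did not follow its receptors. Tgfb1 was at 191, 186 and 176 CPM in macrophages, at 244, 224 and 235 CPM in monocytes, at 265, 196 and 218 CPM in DCs and at 231, 178 and 299.9 CPM in B cells. B cells, monocytes and DCs overlapped one another, and macrophages lay below monocytes and DCs in each mouse, but no difference was called: -0.36 (SE 0.16, adjusted p = 0.0773), -0.29 (SE 0.15, adjusted p = 0.158) and -0.40 (SE 0.17, adjusted p = 0.0598) on the log2 scale by edgeR. The DC value joins clusters with unlike Tgfb1, given below with the differences within cell types. Neutrophils had 85.1 ± 13.4 CPM and T and NK cells 114 ± 23.8 CPM (SD, n = 3), and macrophages were higher by 1.06 (SE 0.16, adjusted p = 1.06e-06) and 0.70 (SE 0.19, adjusted p = 0.00329). With total UMIs as the scale, macrophages were called lower than monocytes (-0.62, adjusted p = 0.00234 by edgeR) and than B cells (-0.95, adjusted p = 5.42e-05). The B cell difference was also called, with the same sign, under RLE factors, DESeq2, without mouse 2, with thinned cells, without Scrublet doublets and at resolution 0.3 (adjusted p = 0.0149 to 0.049), whereas counting a cluster of cycling cells as B cells turned the B cell difference to 0.24 (adjusted p = 0.22). The call against T and NK cells was lost without mouse 1 (0.59, adjusted p = 0.0545 by edgeR), with total UMIs as the scale (0.23, adjusted p = 0.322) and with cells thinned to 2000 UMIs (0.47, adjusted p = 0.145).

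**Figure D1:**
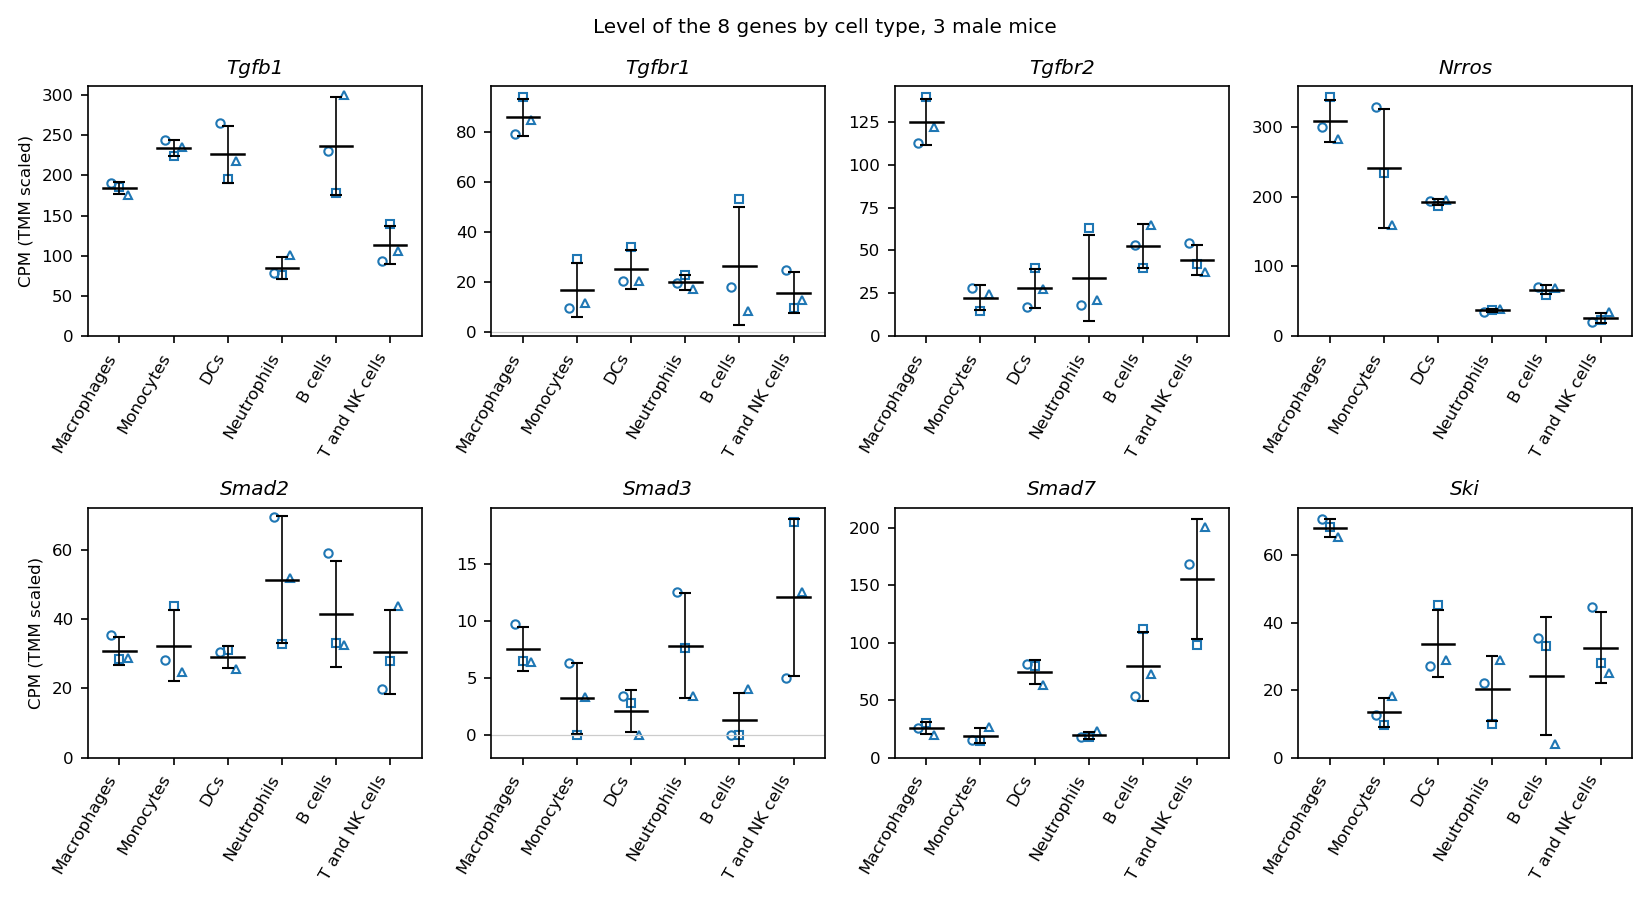
CPM scaled by TMM factors (vertical axis) of each of the 8 genes in 6 cell types of male mice 1 (circles), 2 (squares) and 3 (triangles), with the mean (bar) and SD. Tgfbr1, Tgfbr2 and Ski were highest in macrophages in all 3 mice, whereas Smad7 was highest in T and NK cells by mean.

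The inhibitors went opposite ways. Smad7, which is itself a target of the pathway, was at 168, 98.0 and 200.2 CPM in T and NK cells and at 25.7, 30.4 and 20.1 CPM in macrophages. Macrophages were lower, with a log2 fold change of -2.67 (SE 0.24, adjusted p = 2.32e-10) against T and NK cells, -1.65 (SE 0.32, adjusted p = 8.22e-05) against B cells and -1.55 (SE 0.25, adjusted p = 1.29e-05) against DCs by edgeR. Monocytes (18.9 ± 6.56 CPM) and neutrophils (19.5 ± 2.92 CPM; SD, n = 3) overlapped macrophages, and only with total UMIs as the scale was macrophage Smad7 called above neutrophils (0.97, adjusted p = 0.00164 by edgeR).

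Ski was at 70.7, 68.3 and 65.5 CPM in macrophages, above each other type in each mouse. DCs came next at 33.8 ± 10.0 CPM and monocytes were lowest at 13.5 ± 4.30 CPM (SD, n = 3). The differences were 2.17 (SE 0.35, adjusted p = 9.71e-06) against monocytes, 1.02 (SE 0.28, adjusted p = 0.00449) against DCs, 1.53 (SE 0.25, adjusted p = 3.82e-06) against neutrophils, 1.66 (SE 0.41, adjusted p = 0.00127) against B cells and 1.11 (SE 0.33, adjusted p = 0.00721) against T and NK cells by edgeR. Without mouse 3 the differences from B cells and from T and NK cells were 0.97 and 0.88 and were not called (adjusted p = 0.0743 and 0.0705 by edgeR), nor was the latter with total UMIs as the scale (0.65, adjusted p = 0.108).

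Few differences were called for the signal carriers. Smad2 was at 35.4, 28.4 and 28.6 CPM in macrophages and at 69.4, 32.8 and 51.9 CPM in neutrophils, the highest type by mean, and these ranges overlapped. The fitted difference was -0.83 (SE 0.21, adjusted p = 0.00119) by edgeR, and with total UMIs as the scale it was -0.14 and not called (adjusted p = 0.574). No other Smad2 difference was called, except against B cells with total UMIs as the scale (-0.97, adjusted p = 0.0251 by edgeR). Smad3 was too sparse for a test, with 82 UMIs in 1484 macrophages and 1 UMI in 134 B cells, and its mean was highest in T and NK cells at 12.04 ± 6.87 CPM (SD, n = 3).

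**Figure D2:**
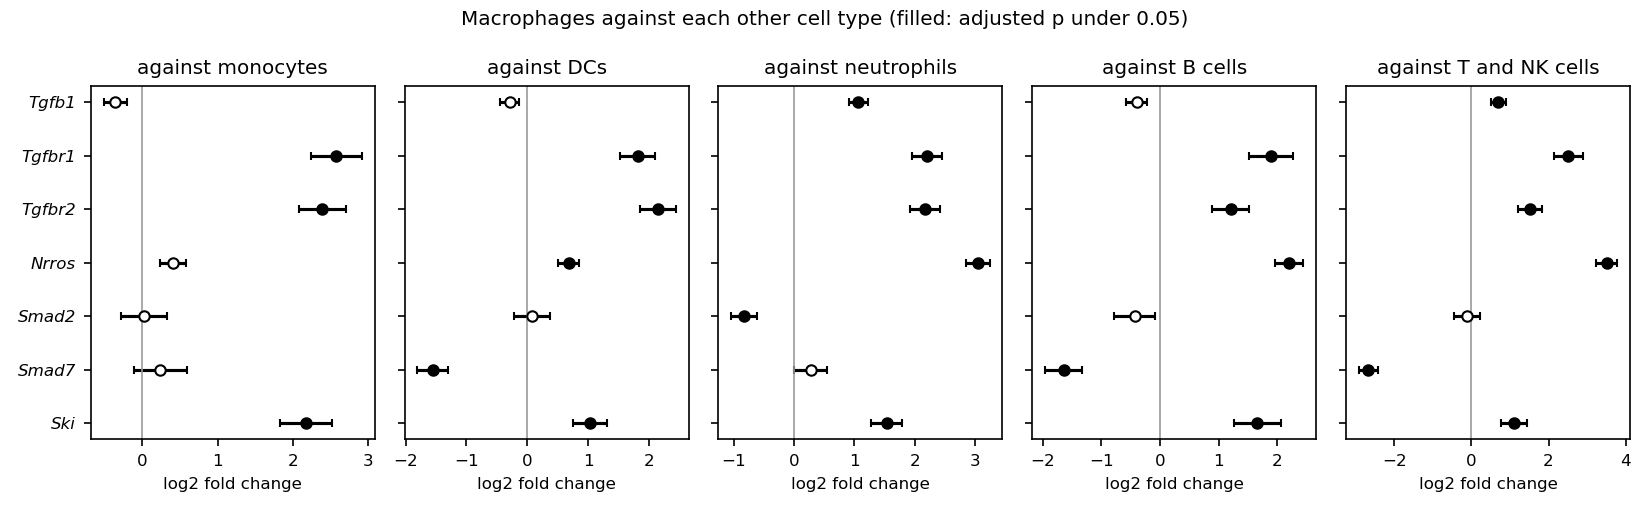
Log2 fold change of macrophages against each other cell type (horizontal axis, bars are standard errors) for the 7 genes that could be tested, with filled points where the adjusted p was under 0.05. Both receptors and Ski lie right of 0 in all 5 panels.

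Of the 7 genes tested, 3 were higher and 0 lower in macrophages than in monocytes, where 37.2% of all genes were called in either direction. The counts were 4 higher and 1 lower against DCs (35.7% of genes called), 5 and 1 against neutrophils (70.1%), 4 and 1 against B cells (47%) and 5 and 1 against T and NK cells (46.8%). The median log2 fold change of the 7 genes lay between 0.40 against monocytes and 1.53 against neutrophils, and that of all genes between 0.03 and 0.10. Scaling by total UMIs moved the median of all genes by -0.26 against monocytes, 0.69 against neutrophils, -0.54 against B cells and -0.46 against T and NK cells.

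C1qa gave a UMI in 30.5% of neutrophils (median 6328 UMIs per cell), and S100a8, a neutrophil gene, in 88.5% of macrophages (median 8622 UMIs). Whether free RNA in the lane or doublets gave these UMIs was not tested. The C1qa level in the other cell types was 0.533% to 1.4% of the macrophage level. Tgfbr1 in those types was at 18.1% to 30.6% and Tgfbr2 at 18% to 42.1% of the macrophage level. C1qa is low outside macrophages by the rule that set them, and Apoe, which the rule did not use, was at 1.21% to 7.32% of its macrophage level there. The part of free RNA in the receptor values of the other types was not tested. Tgfbr1 gave a UMI in 44.1% of macrophages, 12.5% of monocytes and 7.98% of neutrophils. With each cell thinned to 2000 UMIs, these shares were 13.9%, 1.98% and 2.45%, and 30 macrophages, 3 monocytes and 34 neutrophils were too shallow to enter. In DCs, B cells and T and NK cells the Tgfbr1 share was 22.55%, 8.96% and 7.41% at full depth. After thinning it was 6.86% (7 of 102), 7.32% (9 of 123) and 4.62% (6 of 130) in that order. The thinned share was thus highest in macrophages, with a smaller gap to these types than to monocytes and neutrophils. Both receptors together were seen in 406 of 1484 macrophages (27.4%, or 25.9% ± 4.22 as the mean of mice, SD, n = 3), and in 34 of 1454 (2.34%) after thinning. In the other cell types this share was 1.42% to 8.82% at full depth and 0% to 0.813% after thinning. Both receptors and Tgfb1 together were seen in 313 macrophages (21.1%), and in 8 of 1454 (0.55%) after thinning. In the other types the share with all 3 genes was 0.532% to 6.86% at full depth. After thinning it was 0% to 0.813%, the latter from 1 of 123 B cells. Fos, Jun, Atf3 and Rhob, which respond quickly to stress such as tissue digestion, summed to 0.508% to 0.839% of UMIs in macrophages and to 0.042% to 0.42% in the other types. All 6 fibroblast markers had UMIs in macrophages, in sum 0.00405% to 0.0145% of UMIs against at most 0.00156% in any other type. The part of these genes in the differences between cell types was not tested.

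Macrophages were then divided by the UMIs that mark the main subsets of the DRG, Fcrls (a microglia-type Fc receptor-like gene) and Ccr2 (the receptor that draws monocytes to tissue). In the male mice 678 macrophages had Fcrls UMIs only, 156 Ccr2 only, 583 both and 67 neither. These classes rest on detection, and median depth was 8522, 8000, 9080 and 7058 UMIs per cell in that order.

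Tgfbr1 was lower where Fcrls was present without Ccr2. It was at 50.2, 81.0 and 60.4 CPM in Fcrls-only and at 114, 134 and 111 CPM in Ccr2-only macrophages of mice 1, 2 and 3. The classes did not overlap, and the log2 fold change was -0.86 (SE 0.19, adjusted p = 0.00671) by edgeR. Tgfbr1 was the only one of 7 genes called, where 8.95% of 6276 genes were. The call was lost without mouse 1 (-0.79, adjusted p = 0.0697 by edgeR), without mouse 3 (-0.86, adjusted p = 0.0726) and with cells thinned to 2000 UMIs (-0.36, adjusted p = 0.626). Macrophages with both UMIs lay between by mean, at 75.5 ± 5.36 CPM (SD, n = 3). In mouse 2 they were below Fcrls-only macrophages, at 70.5 against 81.0 CPM.

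Tgfbr2 had the opposite sign, at 108, 142 and 121 CPM in Fcrls-only and 109, 100.1 and 72.6 CPM in Ccr2-only macrophages. The ranges overlapped at mouse 1, and the difference of 0.51 (SE 0.18, adjusted p = 0.0986) was not called by edgeR. With the mouse as a block it was 0.53 and was called (adjusted p = 0.0273 by edgeR), as it was with total UMIs as the scale (0.61, adjusted p = 0.0461). Tgfb1 was at 161, 155 and 140.2 CPM in Fcrls-only and 211, 203 and 186 CPM in Ccr2-only macrophages, without overlap. Its difference was -0.39 (SE 0.13, adjusted p = 0.0824), and -0.40 with the mouse as a block, which was called (adjusted p = 0.0253 by edgeR).

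The other genes showed no call between these classes. Nrros differed by -0.03 (SE 0.15, adjusted p = 0.978), Ski by 0.22 (SE 0.23, adjusted p = 0.67), Smad7 by -0.24 (SE 0.32, adjusted p = 0.761) and Smad2 by -0.03 (SE 0.29, adjusted p = 0.998) by edgeR. Smad3 had 34 UMIs in Fcrls-only and 7 in Ccr2-only macrophages. None of the 7 genes was called between macrophages with both UMIs and Fcrls-only macrophages (1.42% of genes called, lowest adjusted p of a member 0.522 by edgeR) or Ccr2-only macrophages (0.86% called, lowest 0.16). With the mouse as a block the genes called in these contrasts went from 89 to 451 and from 54 to 229, and Tgfbr1 alone of the members was among them, lower in macrophages with both UMIs than in Ccr2-only macrophages (log2 fold change -0.62, adjusted p = 0.044 by edgeR).

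**Figure D3:**
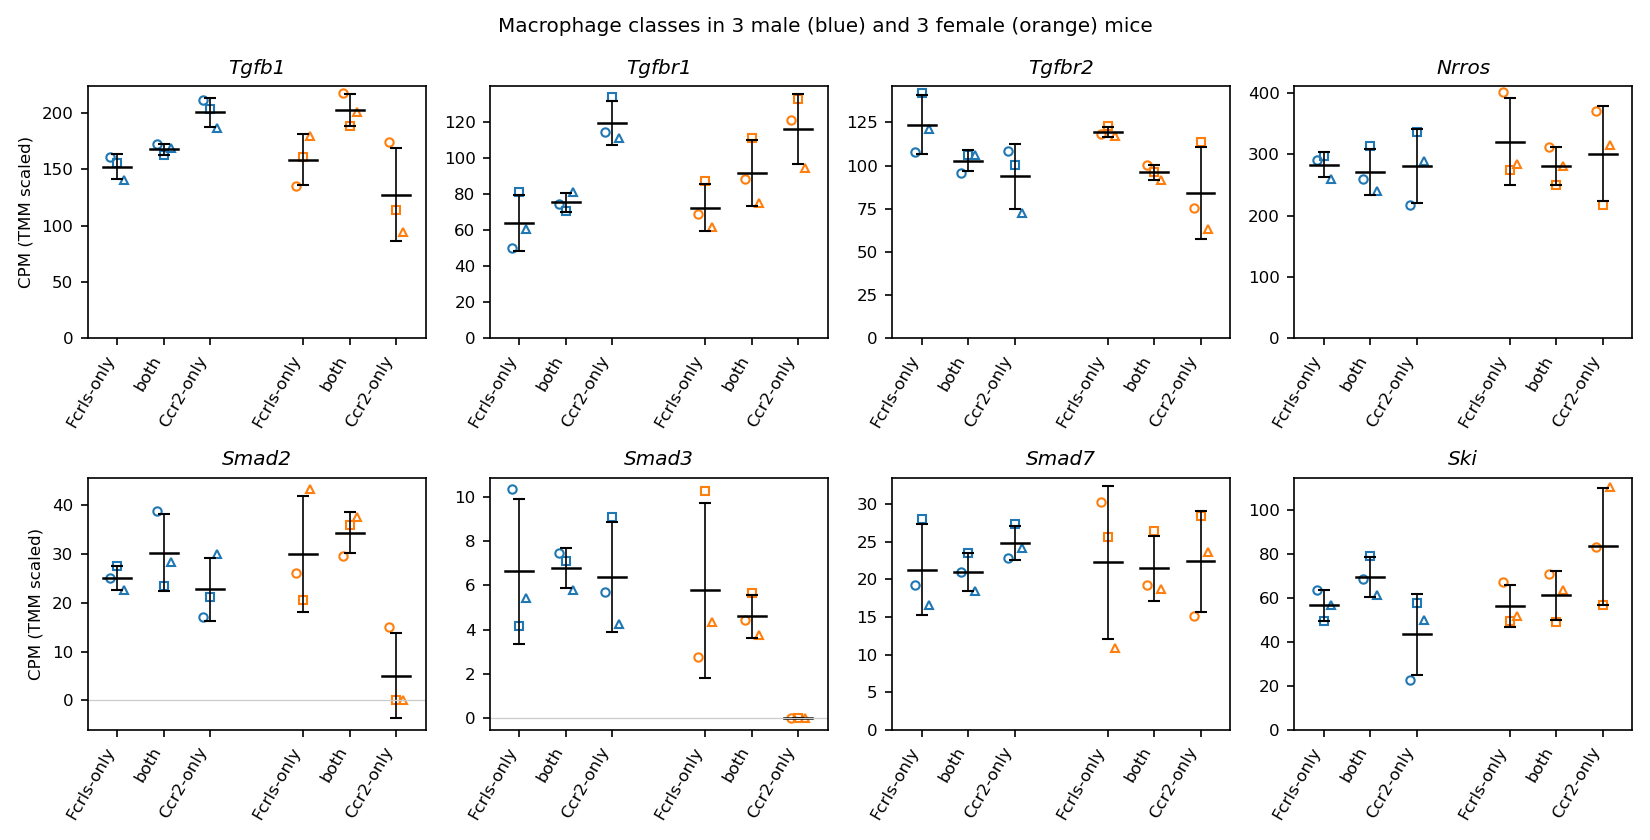
CPM scaled by TMM factors (vertical axis) of the 8 genes in macrophage classes of male mice 1 to 3 (blue) and female mice 4 to 6 (orange), with mean (bar) and SD. Tgfbr1 was higher in Ccr2-only than in Fcrls-only macrophages in all 6 mice.

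Stress genes and fibroblast markers moved with these classes, and the endothelial sum did so only with Egfl7 counted. The same 4 stress genes summed to 0.61% to 1.1% of UMIs in Fcrls-only and to 0.349% to 0.353% in Ccr2-only macrophages. All 5 endothelial markers had UMIs in Fcrls-only macrophages, in sum 0.0117% to 0.0197% of UMIs, against 3 of 5 (Cldn5 and Flt1 at 0) and 0.000529% to 0.00151% in Ccr2-only macrophages. Egfl7 gave 848 of these UMIs, and without it the sums were 0.000207% to 0.000438% and 0.000274% to 0.000529%. All 6 fibroblast markers had UMIs in Fcrls-only and 4 of 6 in Ccr2-only macrophages, in sum 0.00585% to 0.0163% and 0.00317% to 0.00563%, without overlap. The numbers of markers seen depend on depth, and these classes held 5949185 and 1274164 UMIs. Cldn5 and Flt1 had only 2 and 1 UMIs in Fcrls-only macrophages. Monocyte markers without Ccr2 summed to 0.00373% to 0.00612% and 0.00423% to 0.00562%. The part of the stress genes and of the fibroblast and endothelial markers in the difference of Tgfbr1 was not tested.

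Between macrophages with 0 and with 10 or more Fcrls UMIs the receptors moved apart. As a share of all UMIs, Tgfbr1 was at 109.5, 130 and 110.1 CPM in the 223 cells with 0 Fcrls UMIs and at 54.8, 64.0 and 64.5 CPM in the 378 cells with 10 or more. Tgfbr2 was at 94.9, 105 and 77.6 CPM in the former and at 150.2, 151 and 128 CPM in the latter. Neither pair overlapped in the 3 mice. With 1 to 3 and 4 to 9 Fcrls UMIs, mean Tgfbr1 was 75.9 and 72.5 CPM and mean Tgfbr2 88.1 and 105 CPM. Mean Tgfbr2 was thus no higher at 1 to 3 than at 0 Fcrls UMIs. Nrros stayed between means of 264 and 299 CPM. These groups share the cells of the classes above, and median depth rose from 7813 to 10262 UMIs per cell, so they are a description.

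**Figure D4:**
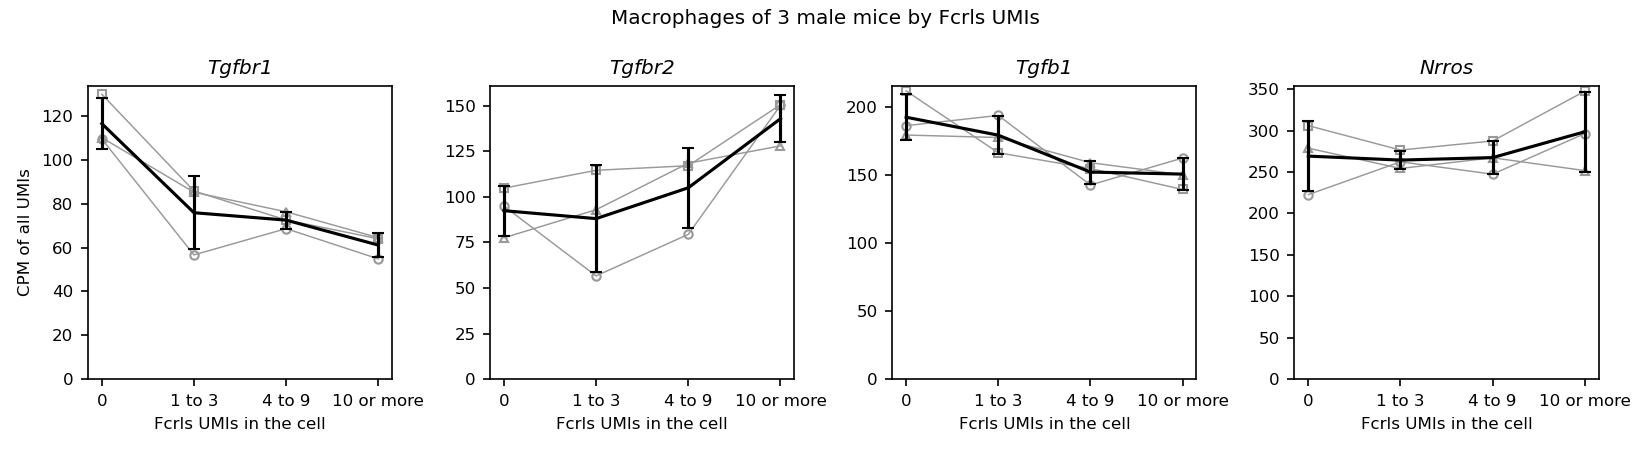
CPM of all UMIs (vertical axis) of 4 genes in macrophages with 0, 1 to 3, 4 to 9 and 10 or more Fcrls UMIs, for each of 3 male mice (grey) and as mean with SD (black). Mean Tgfbr1 fell from 117 to 61.1 CPM, and mean Tgfbr2 went from 92.4 to 143 CPM.

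In female mice 4, 5 and 6, which the classes of male mice did not use, Tgfbr1 was at 68.8, 87.0 and 61.7 CPM in 297 Fcrls-only and at 121, 132 and 94.5 CPM in 55 Ccr2-only macrophages. The ranges did not overlap, but the difference of -0.69 (SE 0.27, adjusted p = 0.19) was not called by edgeR. Tgfbr2 was at 118, 123 and 117 and 75.5, 114 and 63.0 CPM in the same classes, without overlap, and its difference of 0.53 (SE 0.25, adjusted p = 0.305) was not called either. Tgfb1 differed by 0.31 (SE 0.24, adjusted p = 0.612), with a sign opposite to that in males. None of the 7 genes was called, where 5.5% of genes were. Smad2 had 71 UMIs in Fcrls-only and 2 UMIs in Ccr2-only macrophages of females, and its adjusted p was 0.0986 by edgeR, and 0.0306 with no filter on low counts. Smad3 had 12 UMIs in the former and 0 UMIs in the latter.

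The difference between the sexes in this contrast was tested directly, and edgeR called 0 of 6781 genes (0% called), with 303 at an unadjusted p under 0.05 and 1 called by DESeq2. The lowest adjusted p of a member was 0.932 by edgeR. Between all macrophages of female and male mice 0.0863% of genes were called and none of the members. Their log2 fold changes lay between -0.09 and 0.14.

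Around the members, 50 of 51 further pathway genes were in the matrix, and 23 passed the filter on low counts in the comparison of cell types. In macrophages 6 were higher and 3 lower than in monocytes (37.2% of all genes called), 4 and 2 against DCs (35.7%), 8 and 9 against neutrophils (70.1%), 10 and 4 against B cells (47%) and 9 and 5 against T and NK cells (46.8%), and nothing particular to the list is read from these counts. Pmepa1, a feedback inhibitor that binds SMAD proteins, was at 637, 639 and 681 CPM in macrophages and at 78.1, 130.4 and 69.8 CPM in DCs, a difference of 2.85 (SE 0.20, adjusted p = 3.4e-12) by edgeR. Itgb5, a subunit of an integrin that can release active TGF-β, was at 268 ± 12.9 CPM in macrophages and 29.8 ± 9.57 CPM in monocytes (SD, n = 3), a difference of 3.12 (SE 0.26, adjusted p = 7.63e-11). Thbs1, a secreted activator of latent TGF-β, was lower in macrophages than in monocytes and neutrophils. It was at 10.8 ± 0.257 CPM in macrophages against 371 ± 100 CPM in monocytes and 194 ± 82.8 CPM in neutrophils (SD, n = 3). Against DCs macrophage Thbs1 was higher by 6.47 (SE 1.62, adjusted p = 0.00239) and against T and NK cells by 2.87 (SE 1.18, adjusted p = 0.0482). With macrophages at only 10.8 CPM, a fold of 6.47 means almost no UMIs in DCs, so its size is loosely set. The difference from B cells was 1.57 (SE 1.04, adjusted p = 0.226 by edgeR) and was not called.

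The other ligands were scarce, with 7 UMIs of Tgfb2 and 43 of Tgfb3 in 1484 macrophages. Lrrc32, which holds latent TGF-β on regulatory T cells, had 0 UMIs in macrophages and in T and NK cells, and 5 in DCs. Between Fcrls-only and Ccr2-only macrophages 0 pathway genes were higher and 2 of 27 lower, where 8.95% of all genes were called, so the count is near that of genes in general. Furin, the protease that cleaves the TGF-β precursor, was lower in Fcrls-only macrophages in all 3 mice, with a log2 fold change of -0.75 (SE 0.19, adjusted p = 0.0197), and Acvrl1, a receptor for bone morphogenetic proteins, was lower in 2 of 3, with -0.73 (SE 0.22, adjusted p = 0.047). Acvrl1 lost it in 10 of 12 alternatives, each mouse left out among them. Furin lost it with DESeq2 (-0.75, adjusted p = 0.0568), without mouse 2 (-0.67, adjusted p = 0.154 by edgeR) and without mouse 3 (-0.69, adjusted p = 0.207), and with cells thinned to 2000 UMIs its difference was 0.14 (adjusted p = 0.931).

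Of 18 genes that TGF-β or related ligands are known to induce or repress, 9 could be tested between the macrophage classes, with 1 higher and 2 lower in Fcrls-only macrophages (8.95% of all genes called). Id3, a target shared with bone morphogenetic proteins, was lower in both sexes, with a log2 fold change of -1.34 (SE 0.25, adjusted p = 0.00197) in males and of -2.08 (SE 0.28, adjusted p = 3.72e-05) in females by edgeR. Cdkn1a, a cell cycle inhibitor, had a log2 fold change of -0.42 (SE 0.12, adjusted p = 0.0422), and Cyr61, a secreted matrix protein, was called higher, with 120 UMIs against 4, all 4 from mouse 3 (adjusted p = 0.0269 by edgeR). Id3 kept its call in all 13 alternatives in males and all 12 in females. Cdkn1a lost it in 6 of 13, mice 1 and 3 left out among them (adjusted p = 0.235 and 0.304 by edgeR), and Cyr61 without mouse 1 or 2 (0.114 and 0.121). The list's median log2 fold change was -0.40, against 0.02 over all genes. The list mixes induced and repressed genes, so this median gives no direction of signalling.

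A further list held 18 genes linked to TGF-β signalling in microglia or resident macrophages. Of these, 16 were tested between the classes, with 4 higher and 2 lower in Fcrls-only macrophages (8.95% of all genes called). The direction in which TGF-β signalling moves each gene was not tested. The counts therefore give no level of signalling. Gas6, a ligand for receptors that clear dying cells, differed by 1.77 (SE 0.16, adjusted p = 1.94e-06), Siglech by 1.01 (SE 0.28, adjusted p = 0.0264), Gpr34 by 0.77 (SE 0.19, adjusted p = 0.0147) and Apoe by 0.40 (SE 0.08, adjusted p = 0.00293) by edgeR. Axl, a receptor for Gas6, was lower, with a log2 fold change of -0.63 (SE 0.16, adjusted p = 0.0199 by edgeR). Gas6 kept its call in all 13 alternatives. Without mouse 1 the calls of Siglech, Gpr34 and Axl were lost (adjusted p = 0.0994, 0.0861 and 0.252 by edgeR), without mouse 2 those of Siglech and Apoe (0.179 and 0.101), and without mouse 3 those of Gpr34 and Axl (0.118 and 0.236). Axl also lost its call with total UMIs as the scale (-0.52, adjusted p = 0.0636 by edgeR) and with cells thinned to 2000 UMIs (-0.43, adjusted p = 0.47). The list's median log2 fold change was 0.37. In females 4 of 16 genes were higher and 1 lower (5.5% of all genes called). The same list was higher in macrophages for 13 of 13 genes against monocytes, DCs, neutrophils and T and NK cells, and for 12 of 13 against B cells, where 37.2%, 35.7%, 70.1%, 46.8% and 47% of all genes were called in either direction. Csf1r, Cx3cr1 and Apoe in it are also general macrophage genes.

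Over the 18 sums of 6 cell types in 3 mice, the genes most like Nrros were Ctss (Pearson r = 0.977), Pld4 (0.948) and Ctsz (0.947), among 5967 genes. For Smad7 they were Tespa1 (0.961), Il7r (0.93) and Grap2 (0.922). Tgfbr1 was most like Rab3il1 (0.87), Kcnk13 (0.848) and Hpgds (0.84), and Tgfbr2 most like Gas6 and Sdc4 (both 0.828) and St3gal6 (0.826). The closest genes to Tgfb1 were Cd180 (0.902), BC035044 (0.896) and Borcs7 (0.885), those to Ski Mgat4b (0.85), Sqstm1 (0.84) and Ptov1 (0.823), and those to Smad2 Oard1 (0.786), Topbp1 (0.78) and Pold3 (0.755). These sums share mice, the lane and the contrast of macrophages with the rest, and the coefficients are a description.

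Members also varied within cell types, as a share of all UMIs and without a test. Among DCs, the Xcr1 cluster of 51 cells had a mean Smad7 of 95.4 ± 25.6 CPM and Nrros of 108 ± 16.9 CPM, against 47.3 ± 10.7 and 239 ± 17.4 CPM in the Cd209a cluster of 51 cells (SD, n = 3). Tgfb1 was at 137 ± 14.4 CPM in the Xcr1 cluster and at 269.5 ± 57.8 CPM in the Cd209a cluster. Macrophage clusters had Tgfb1 means from 127 to 179 CPM on this scale, so only the Cd209a cluster lay above them by mean. Their Nrros means ran from 194 to 346 CPM, so the Cd209a cluster lay among them and only the Xcr1 cluster below. Among macrophages, Tgfbr2 was at 127 ± 6.67 CPM in the cluster led by Ccl24 and Egfl7 (770 cells) and at 90.5 ± 10.8 CPM in that led by Cxcl14 and Tnfsf9 (529 cells). Its highest cluster mean was 239 ± 53.8 CPM, in 11 macrophages led by Cd209g and Lyve1. Tgfbr1 in those 11 cells was at only 28.1 ± 28.2 CPM, from 4 UMIs. Among neutrophils, Tgfbr2 was at 54.7 ± 47.9 CPM in the cluster led by Asprv1 and at 5.84 ± 0.126 CPM in that led by Fcnb and Elane, which mark immature cells. The 14 cells just outside the C1q limit (0.25% to 0.5% of UMIs) had 5 Tgfbr1 UMIs among 119343, and the 87 just inside (0.5% to 1%) had 65 among 619691. That is 41.9 and 105 CPM of all UMIs. Across the same limit Tgfbr2 was at 67.0 and 80.7 CPM and Ski at 41.9 and 46.8 CPM. The outside values pool the mice and rest on 5 UMIs of Tgfbr1, 8 of Tgfbr2 and 5 of Ski, too few to rank these steps.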

How the data were processed

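The authors deposited raw UMI counts from Cell Ranger (build mm10 in the submitters' notes) for 4395 barcodes with hashtag counts, and the counts of the male cells left after their Seurat filters (more than 200 but fewer than 5000 genes in a cell, mitochondrial share below 5%). HTODemux (quantile 0.99), repeated here, gave exactly those cells and 1073 female cells, 313 to 1415 per mouse with medians of 7237 to 9137 UMIs per cell. Cells were clustered in Seurat 5.3.0 (2000 variable features without the listed genes, 15 components, resolution 0.5) and named where 3 markers were raised. The rules that divided 1 mixed cluster and left a cluster of 137 cycling cells unnamed were written after the clusters were seen. Of these cycling cells, 19 passed the C1q limit and were counted as macrophages. Counts were summed per mouse and class and compared in edgeR 4.0.16 (quasi-likelihood F test, filterByExpr, TMM, adjusted p under 0.05), and the step was tested on simulated data. For Fcrls-only against Ccr2-only macrophages, 56.2% of genes with a simulated log2 change of size 1 were called, and 5.19% of calls were false. Against monocytes these were 69.8% and 3.25%. Smaller differences can therefore go uncalled. Sums of a mouse come from the same animal and pair by it (median correlation of deviations 0.104 between macrophage classes). The simulated sums were drawn without this pairing, and only genes above a minimum mean count were changed. The simulated rates need not hold outside that setting. Hashtag demultiplexing had removed barcodes with more than 1 hashtag, but doublets of cells from the same mouse could remain. Scrublet marked 11 of 3741 cells. Members and lists were chosen with earlier results of these data known. Named list genes were taken from those called with 1 direction in all mice, at most 6 per list and comparison, and Acvrl1, Thbs1, Lrrc32, Tgfb2 and Tgfb3 were also named after their values were seen. Some genes of the lists enter the counts but are not reported here by name.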

Additional observations from a re-analysis of the deposited data

How the results depend on the processing

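Of 711 alternatives to 49 tested differences of the 8 genes, 652 kept direction and side of the threshold, 12 lost the call, 18 gained one and 29 turned the sign. Every one of these 29 was uncalled, and the cause was not tested. On the log2 scale, scaling by total UMIs gave 0.084 for Smad2 and 0.0833 for Nrros between Fcrls-only and Ccr2-only macrophages, 0.00014 for Smad7 in the female contrast, and -0.235 for Smad2 and -0.013 for Smad7 against monocytes. No filter on low counts gave 0.0352 (Smad2) and 0.0357 (Nrros) between the male classes, 0.115 (Smad7, female) and 0.0445 (Smad2 against T and NK cells). A C1q limit of 1% gave 0.00372 (Nrros) and 0.000955 (Smad7, female), a minimum of 2 Fcrls or Ccr2 UMIs 0.00106 (Nrros), and macrophages also in a macrophage cluster 0.0334 (Smad2). Thinning gave -0.153 (Tgfb1) and -0.132 (Nrros) in females, 0.145 for Furin between the male classes, a gene called before, and -0.168 for Smad7 against neutrophils, which was -0.0939 with clusters from a separate part of the UMIs and -0.323 at resolution 0.3. Counting the cycling cluster as B cells, chosen after seeing the data, gave 0.236 for Tgfb1 against B cells and -0.000553 for Smad2 against monocytes. Leaving out 1 mouse gave -0.22 to 0.43 (Smad2) and -0.166 to 0.0501 (Nrros) between male classes, -0.115 to 0.243 (Smad2) and -0.049 to 0.932 (Smad7) against monocytes, -0.374 to 0.315 (Smad2 against T and NK cells), and -0.605 to 0.439 (Smad7, female).

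Counts of all genes called moved as follows. Thinning to 2000 UMIs gave 247 for Fcrls-only against Ccr2-only (562 before), 29 for both against Ccr2-only (54), 140 in females (311), 861 against monocytes (2243), 736 against DCs (2157), 1835 against neutrophils (4230), 1370 against B cells (2834), 1298 against T and NK cells (2823) and 4 between the sexes (7). Clusters from a separate part of the UMIs gave 1420, 1377, 2544, 1767 and 1812 against these 5 types. No filter gave 246 for both against Fcrls-only (89), 164 for both against Ccr2-only, 6967 against neutrophils, 23 for the sex difference (0) and 104 between the sexes. With the mouse as a replicate block, which pairs sums of the same animal, these were 451, 229 and 4 for both against Fcrls-only, both against Ccr2-only and the sex difference. For the sex difference DESeq2 and a C1q limit of 1% gave 1 each. Leaving out 1 mouse gave 300 to 331 for Fcrls-only against Ccr2-only, 17 to 73 and 9 to 37 for the contrasts of cells with both UMIs, 149 to 177 in females, 0 to 1 for the sex difference and 5 to 66 between the sexes, the last without mouse 2. The block changed no other call of a member than those given for Tgfb1, Tgfbr1 and Tgfbr2 between macrophage classes. Depth limits Smad3 and Smad2 in the small classes.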
